A study of Homo sapiens with 28 samples.

Results

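PLC/PRF/5 is a human hepatoma cell line established from a liver tumour whose cells carry integrated hepatitis B virus DNA. Its 7 libraries were taken by their labels: 4 tumours grown in ovo, made by placing line cells, with no allele or drug named in the labels, on the chorioallantoic membrane of fertilized white leghorn eggs at embryonic day 9 and removing them at day 18, and 3 cultures grown in vitro. The study holds 28 libraries of 4 liver tumour lines, the other 21 being from HepG2, Hep3B and HuH7 under the same 2 conditions. RNA came through a Midi column from tumours and a Mini column from cultures, and column and condition cannot be told apart. No label says whether the replicates came from separate eggs, passages or days, so every p-value below measures the spread between libraries, which may be technical. All 18961 targeted human amplicons were considered: 12835 were tested and kept, 265 were tested and set aside because their level in the tumours followed that of HepG2 tumours, and 5861 were too low to test.

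The chorioallantoic membrane is a vascularized extraembryonic tissue on which human cells form small vascularized tumours, and the embryo is naturally immunodeficient at these stages. Cells inside such a mass can receive less oxygen than a monolayer. Low oxygen is known to stabilize the HIF transcription factors, which bind hypoxia response elements near genes of glucose uptake, glycolysis, pH control and angiogenesis. Cultured cells are known for stretch-, serum- and oxidant-driven programmes, read out by the AP-1, YAP and NRF2 target genes.

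The tumour libraries held 8071304 to 8580088 reads and the cultures 6205368 to 7748138. A total of 3 reads, taken as the detection floor, was worth 0.350 to 0.372 CPM (reads scaled to a common library total) in tumours and 0.387 to 0.483 CPM in cultures. These floors are before TMM scaling, whose factors (1.09 to 1.46 in tumours, 1.33 to 1.53 in cultures) lower them. The correlation of log2 levels was 0.957 to 0.993 between tumours and 0.991 to 0.996 between cultures, and tumour replicate 3 gave the lowest values with its fellows. That library also stood apart by olfactory receptor amplicons: it had a read in 45.5% of 391, the other tumours in 11.3% to 21.2%, and the cultures in 2.05% to 3.58%. Whatever gave these reads, its part in the differences below was not tested. Counts over all genes are also given without tumour replicate 3, and those of a gene list where they moved by 1.5 times or more. All levels are CPM after TMM scaling, and levels of different genes, read through different amplicons, are not compared.

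Some markers of the labelled cell type were not detected through their amplicons. ALB, the main plasma protein of hepatocytes, had 0.101, 0.167, 0 and 0.325 CPM in tumours and 0 in all 3 cultures, which is at or under the floor in every library. FOXA2, a liver and endoderm transcription factor, was also under the floor in all 7, and its amplicon lies in untranslated or non-coding sequence. Whether the ALB and FOXA2 amplicons read their genes well was not tested, so these values do not show that the RNA was absent. KRT8 and KRT18, the keratin pair of simple epithelia, were abundant: KRT18 had 2762 to 6874 CPM in tumours and 5170 to 6202 CPM in cultures, where the value of tumour replicate 2 (2762 CPM) was filled from the missing part of its library's total because its cell was damaged. CPS1, the mitochondrial enzyme that opens the urea cycle, had 1777, 1784, 1917 and 2129 CPM in tumours, against 1045, 1156 and 1072 CPM in cultures. Every tumour was above every culture, and the rise was 0.80 ± 0.20 on the log2(CPM + 1) scale (SE; limma, adjusted p = 0.0069), a call that ended when libraries were scaled by their totals alone.

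Many genes of that programme were read in tumours at a near-constant share of their level in HepG2 tumours while silent in PLC/PRF/5 cultures, and these were set aside. The bounds were a culture mean under 0.5 CPM, at least 25 CPM in HepG2 tumours, and a PLC/PRF/5 tumour mean of 0.5% to 3% of it. Of 284 genes silent in cultures with at least 25 CPM in HepG2 tumours, 265 lay in that range, 4 below and 15 above. The share narrowed with abundance: among the 23 with at least 500 CPM in HepG2 tumours all lay between 0.572% and 1.06%, with a median of 0.808%, and the 81 genes between 100 and 500 CPM had a median of 1.06%. By library the median share was 0.935%, 0.698%, 1.04% and 1.53% in tumour replicates 1 to 4, and the summed level of the set was 669, 481, 710 and 1230 CPM in tumours, against 30.0, 28.2 and 32.7 CPM in cultures. Tumour replicate 4 was highest and replicate 2 lowest by either measure.

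Plasma proteins led the set aside genes. APOA1, the chief apolipoprotein of HDL particles, had 208, 127, 163 and 422 CPM in tumours, against 0.485, 0.190 and 0.701 CPM in cultures, and its tumour mean was 0.657% of the HepG2 tumour level. AHSG (fetuin-A) stood at 0.992%, SERPIND1 (heparin cofactor II) at 0.757%, A2M at 0.808%, APOH at 0.620% and SERPINA3 at 1.01%. Just inside the bounds were PRODH2 at 0.537%, AKR1D1 at 0.557%, HGD at 2.94% and PARD6G at 2.97%. Just outside were SLC16A10 at 0.460%, SSUH2 at 0.483%, PECAM1 at 3.22% and STAP2 at 3.35%, while CEACAM1 at 0.481 CPM in cultures was inside and AQP11 at 0.502 CPM outside. In the comparison that chose them, 123 of the 265 were called higher in tumours and 0 lower (11.7% and 5.62% of all 13100 genes tested), which the choice itself fixes.

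The bound on culture level left out the most abundant genes of the same kind. A wider rule, added after the values were seen, took a culture mean under 1 part in 10 of the tumour mean in place of 0.5 CPM and added 15 genes, all at 0.539% to 2.24% of HepG2 tumours. IGF2, a fetal growth factor, had 459, 266, 300 and 810 CPM in tumours, against 4.37, 4.85 and 12.7 CPM in cultures, at 0.640% of the HepG2 tumour level. SERPINA1 (alpha-1-antitrypsin) stood at 0.539%, the iron carrier TF at 0.607%, APOB at 0.544%, the oncofetal markers AFP at 0.651% and GPC3 at 0.888%, and DLK1 at 0.753%. All 15 were called higher, and 0 were once each tumour's median share of the HepG2 level was subtracted; the rule itself used these levels, so neither count is a result. Of the 12820 genes left by the wider rule, 10.8% were called higher. The source of this shared signal was not tested, and the 15 are named below only as members of their lists.

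**Figure D1:**
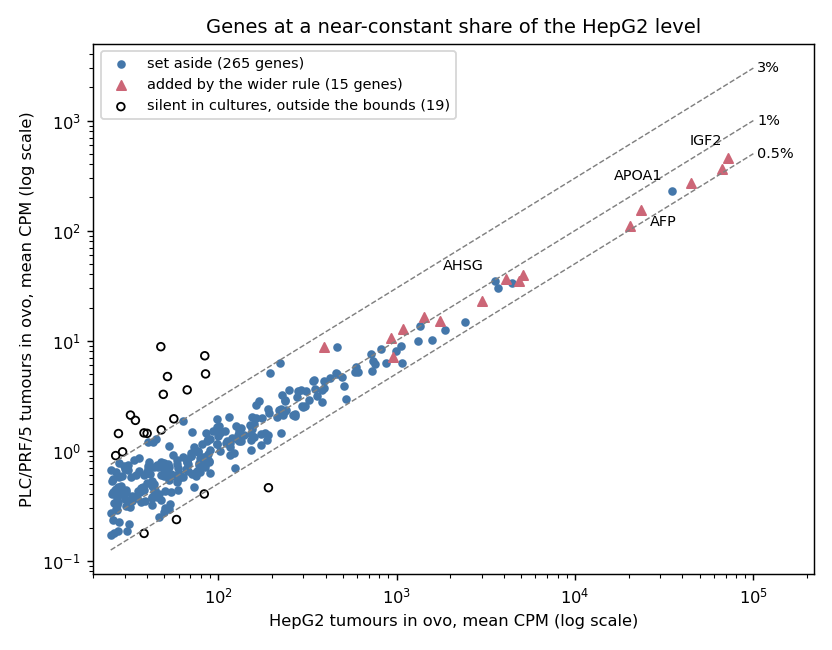
Mean level in PLC/PRF/5 tumours in ovo (vertical, CPM, log scale) against the mean level in HepG2 tumours in ovo (horizontal, CPM, log scale), 1 point per gene; dashed lines mark 0.5%, 1% and 3%. The 265 set aside genes and the 15 of the wider rule lie along the lower lines over more than 3 orders of magnitude, and the 23 most abundant silent genes lie between 0.572% and 1.06%.

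Beyond these genes, growth in ovo went with a broad shift in expression. Of 12835 genes, 1404 (10.9%) were called higher in tumours and 736 (5.73%) lower (limma, adjusted p under 0.05), among them 713 (5.56%) higher and 346 (2.7%) lower by at least 2-fold. For 4990 genes (38.9%) no tumour overlapped with any culture. With DESeq2's size factors the split was 1055 higher and 1047 lower, and with total counts alone 1136 and 1202, where the median of all genes was -0.07 log2 units and under TMM 0.07. Without culture replicate 2 the counts were 820 and 441, without culture replicate 3 they were 930 and 529, and without tumour replicate 3 they were 1045 and 590. The fold changes followed the amplicons' GC content (Spearman rho 0.389 over 13100 genes, which are not independent), and 1261 and 665 genes were called with the trend on GC and length removed. In a bulk sample, fewer cells of a type and less RNA per cell cannot be told apart.

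Most hypoxia-inducible genes tested were higher in tumours. Of 32 tested, 22 were called higher, against 10.9% of all genes, and 0 lower, with a median log2 fold change of 1.27 against 0.06 over all 12835 genes, and between 18 and 23 were called with 1 library left out (18 without tumour replicate 3). The 10 not called ran between -1.02 for LDHA and 1.08 for STC2. CA9, the cell-surface carbonic anhydrase that buffers acid from glycolysis, had 470, 238, 468 and 397 CPM in tumours, against 19.6, 24.7 and 21.0 CPM in cultures. NDRG1, a stress-responsive gene, had 2419, 816, 3672 and 1823 CPM in tumours, against 175, 139 and 162 CPM in cultures. For both, the lowest tumour, replicate 2, was still several times above the highest culture, with rises of 4.07 ± 0.25 (adjusted p = 9.3e-12) and 3.59 ± 0.45 (adjusted p = 2.3e-06).

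The CA9 promoter is shown because its HIF response element is the textbook example next to a transcription start. The 250 bases before the RefSeq start (GRCh38.p14, chr9:35673678-35673927, plus strand) hold the core ACGTG, searched on both strands, 1 time; capitals mark it, read here as CACGT.
CA9 promoter: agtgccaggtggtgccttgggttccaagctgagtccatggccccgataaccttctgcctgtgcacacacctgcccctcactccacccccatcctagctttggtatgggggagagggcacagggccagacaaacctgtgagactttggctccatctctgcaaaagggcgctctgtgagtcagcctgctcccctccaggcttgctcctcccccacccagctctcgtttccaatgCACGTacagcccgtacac
BNIP3, a mitophagy receptor gene induced by low oxygen, is shown beside it because its window (chr10:131981924-131982173, minus strand) holds the core on both strands in 1 overlapping palindrome, in capitals.
BNIP3 promoter: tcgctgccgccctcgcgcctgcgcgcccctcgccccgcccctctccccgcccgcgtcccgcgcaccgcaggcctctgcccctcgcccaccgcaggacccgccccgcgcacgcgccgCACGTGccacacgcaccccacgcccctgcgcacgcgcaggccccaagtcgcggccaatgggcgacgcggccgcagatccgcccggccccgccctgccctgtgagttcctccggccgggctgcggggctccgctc
The core was found in 15 of the 27 list members with a promoter in the RefSeq table, in 7 of the 17 of these that rose, and in 18.5% of all 35116 promoter windows of the same length. A match describes these letters only. BNIP3 itself had 122 to 182 CPM in tumours and 36.9 to 43.5 CPM in cultures, a rise of 1.92 ± 0.23 (adjusted p = 1.0e-06).

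Glucose transporters and glycolytic enzymes were among the hypoxia-inducible genes that rose. SLC2A3, a high-affinity glucose transporter, had 332, 159, 250 and 222 CPM in tumours, against 9.51, 8.18 and 10.1 CPM in cultures, a rise of 4.52 ± 0.39 (adjusted p = 5.4e-09). Its close paralog SLC2A14 had 54.6, 28.7, 34.9 and 40.8 CPM in tumours, against 1.55, 1.43 and 1.99 CPM in cultures. The amplicons of the pair, read from the deposited table and matched to GRCh38, are printed because they differ at 4 of 126 bases, in capitals, so that reads of SLC2A3 could be counted under SLC2A14 and the second gene's values are uncertain. Both span 2 coding exons on the minus strand, SLC2A3 at chr12:7924448-7925905 and SLC2A14 at chr12:7819520-7821282, introns included.
SLC2A3 amplicon: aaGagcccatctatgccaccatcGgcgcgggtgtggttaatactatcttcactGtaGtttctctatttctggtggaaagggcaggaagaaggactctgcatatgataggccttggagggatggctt
SLC2A14 amplicon: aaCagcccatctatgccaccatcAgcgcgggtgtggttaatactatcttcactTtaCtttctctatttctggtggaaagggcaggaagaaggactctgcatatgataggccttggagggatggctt
HK2, the inducible hexokinase of tumours, had 1828, 775, 1668 and 1530 CPM in tumours, against 236, 206 and 222 CPM in cultures, a rise of 2.64 ± 0.35 (adjusted p = 4.7e-06). PFKFB4, which sets the level of the glycolytic activator fructose 2,6-bisphosphate, had 71.8 to 136 CPM in tumours and 16.6 to 17.03 CPM in cultures. ALDOC rose by 1.54 ± 0.29 and PFKL, the liver-type phosphofructokinase, by 0.93 ± 0.21. Of 20 glycolysis genes, 9 were called higher, against 10.9% of all genes, and 0 lower, with a median of 0.62. With total counts alone 5 were called higher, and 6 of the 9 are also on the hypoxia list.

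Further genes of the hypoxia list, and NDUFA4L2 outside it, were higher in tumours, some without a stable call, while LDHA was not. KDM3A, a histone demethylase under HIF control, had 116 to 170 CPM in tumours and 25.4 to 34.6 CPM in cultures, and EGLN3, a prolyl hydroxylase that marks HIF for destruction, had 16.2 to 24.6 CPM in tumours and 5.33 to 6.19 CPM in cultures. NDUFA4L2, a HIF target that lowers respiration, had 191, 68.9, 209 and 179 CPM in tumours, against 9.03, 5.99 and 8.77 CPM in cultures, a rise of 4.09 ± 0.39 (adjusted p = 2.1e-08). VEGFA, the main angiogenic factor, had 784 to 1119 CPM in tumours and 355 to 465 CPM in cultures, yet its call (1.17 ± 0.39, adjusted p = 0.039) was lost when any library but tumour replicate 2 was left out. SLC2A1, the broad glucose transporter, behaved likewise: tumour replicate 2 at 397 CPM lay within the culture range of 337 to 406 CPM, while the other tumours had 983 to 1322 CPM (adjusted p = 0.029). LDHA, the lactate-forming dehydrogenase, had 12.6 to 34.2 CPM in tumours and 36.7 to 88.7 CPM in cultures and was not called.

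**Figure D2:**
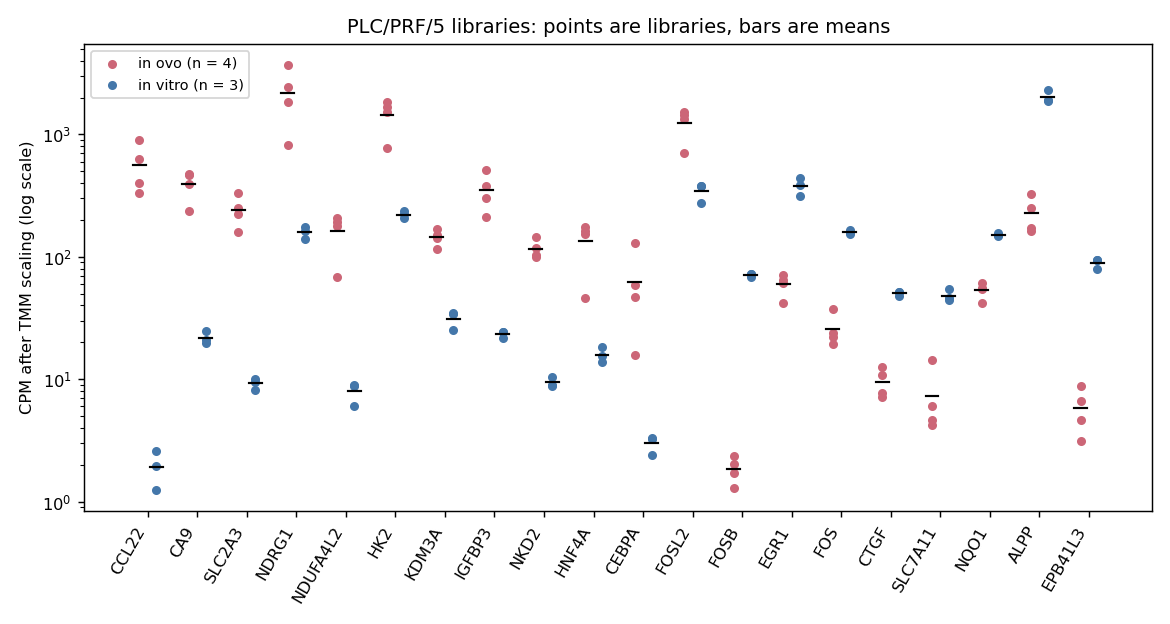
Levels of 20 genes by library (vertical, CPM after TMM scaling, log scale); red points are the 4 tumours in ovo, left of the blue points of the 3 cultures in vitro, and bars are means. CCL22 to FOSL2 are higher in every tumour than in any culture, and FOSB to EPB41L3 are lower in every tumour.

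CCL22 had the largest rise of the genes named here. This chemokine, which draws regulatory T cells through the receptor CCR4, had 903, 333, 399 and 626 CPM in tumours, against 1.94, 1.24 and 2.57 CPM in cultures. The lowest tumour lay over 100 times above the highest culture, and the fitted rise was 7.52 ± 0.26 (adjusted p = 3.3e-16). Its amplicon spans 2 coding exons (chr16:57360446-57363513, plus strand, GRCh38, intron included) and is shown as the stretch behind this value.
CCL22 amplicon: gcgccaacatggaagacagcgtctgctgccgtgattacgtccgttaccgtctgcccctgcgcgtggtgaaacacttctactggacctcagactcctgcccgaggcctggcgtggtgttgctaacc
Among NF-kB genes and inflammatory mediators, 5 of 24 were called higher, against 10.9% of all genes, and 1 lower, against 5.73%, with a median of 0.51. The higher calls were 4 to 8 under the alternatives run. IL32, a cytokine of epithelial and lymphoid cells, had 709 to 1078 CPM in tumours and 308 to 359 CPM in cultures, and RELB and NFKB2, subunits of the noncanonical NF-kB dimer, rose by 1.67 and 0.77. IL6, which drives the acute phase response in hepatocytes, had 12.4 to 22.3 CPM in tumours and 4.95 to 6.08 CPM in cultures (adjusted p = 0.0018), and lost its call in edgeR's count test. CXCL8, the neutrophil chemokine, had 2.67 to 4.98 CPM in tumours and 3.27 to 4.00 CPM in cultures, with no call. CCL5, a T cell chemokine, fell to 0.216 to 1.59 CPM in tumours, against 2.23 to 5.52 CPM in cultures, and also lost its call in edgeR's test.

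Several other genes with the largest rises encode secreted or membrane proteins. IGFBP3, which binds insulin-like growth factors, had 512, 213, 381 and 303 CPM in tumours, against 24.1, 21.6 and 24.3 CPM in cultures (3.79 ± 0.34, adjusted p = 9.9e-09). DNER, a transmembrane Notch ligand, had 61.6 to 90.7 CPM in tumours and 2.45 to 3.59 CPM in cultures (4.32 ± 0.25). EDN2, a vasoconstrictor peptide precursor, had 27.7 to 57.9 CPM in tumours and 2.23 to 2.95 CPM in cultures. No culture reached the lowest tumour for any of these, where 38.9% of all genes had no overlap in either direction. CXCR4, the receptor of the chemokine CXCL12, had 93.7, 33.2, 85.6 and 99.8 CPM in tumours, against 6.50, 6.28 and 5.03 CPM in cultures, and was named after its values were seen. KCNJ18 (4.76 ± 0.31) belongs to a potassium channel pair and its amplicon also matches KCNJ12, so the gene behind it is uncertain. MAPK4, PLEKHH1 and C17orf51 rose by 3.65, 3.54 and 3.81, the last with 105 CPM in tumour replicate 3 and 52.9 to 54.5 CPM in the other tumours, against 3.40 to 3.97 CPM in cultures.

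Wnt/beta-catenin targets included several rises. Of 15 tested, 7 were called higher, against 10.9% of all genes, and 0 lower, with a median of 0.78, with 5 higher and 1 lower after the HepG2 share was subtracted and 6 higher and 1 lower without tumour replicate 3. NKD2, a Dishevelled-binding feedback inhibitor, had 99.0, 119, 144 and 104 CPM in tumours, against 10.4, 8.85 and 8.999 CPM in cultures (3.48 ± 0.26, adjusted p = 2.7e-10). AXIN2, the feedback scaffold of the beta-catenin destruction complex, had 21.2, 6.68, 16.8 and 17.9 CPM in tumours, against 3.69, 1.90 and 4.32 CPM in cultures. TCF7, a partner of beta-catenin on DNA, had 3.09 to 9.85 CPM in tumours and 0.0951 to 0.584 CPM in cultures, which is near the floor. In all 3 the groups were apart, as they were for 38.9% of all genes. GLUL, the glutamine synthetase of perivenous hepatocytes, rose by 1.81 ± 0.30, its tumour level being 3.74% of that in HepG2 tumours. MYC had 960 to 1470 CPM in tumours and 504 to 578 CPM in cultures (1.13 ± 0.34, adjusted p = 0.023), a call lost with total counts alone and without tumour replicate 2 or any 1 culture. CCND1, the G1 cyclin, had 39.8 to 101 CPM in tumours and 102 to 131 CPM in cultures and was not called (adjusted p = 0.051). WNT10B, a ligand, rose by 3.03 and NOG, a BMP antagonist, by 3.11, with 128 to 181 CPM of NOG in tumours and 14.9 to 19.6 CPM in cultures; both were picked after their values were seen.

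Part of the liver transcription factor network was higher in tumours. HNF4A, the nuclear receptor at the head of hepatocyte identity, had 154, 46.2, 162 and 175 CPM in tumours, against 18.1, 13.7 and 15.4 CPM in cultures (2.85 ± 0.31, adjusted p = 2.1e-07). At 6.83% of the HepG2 tumour level it was above the set aside range, and its rise was 2.57 after subtraction. CEBPA, which restrains growth of hepatocytes, had 59.3, 15.9, 129 and 46.6 CPM in tumours, against 3.30, 2.38 and 3.27 CPM in cultures (3.66 ± 0.58, adjusted p = 5.5e-05). For both genes tumour replicate 2 was lowest and still above every culture. ONECUT2 and PPARA rose by 1.33 and 0.99. In all, 6 of 16 factors tested were called higher, against 10.9% of all genes, and 0 lower, against 5.73%, with a median of 0.37. NR0B2, 1 of the 6, lay at 0.748% of HepG2 tumours and lost its call after subtraction, when 5 were higher.

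Plasma protein genes, which these factors are known to drive, lay mostly at the HepG2 share. Of 27 secreted plasma proteins, 15 were set aside and 11 tested. Of these 11, 9 were called higher and 0 lower at a median of 3.40, against 10.9% and 5.73% of all genes. Among the 9, AFP, APOA2, APOB, TF, SERPINA1, FGB and AMBP met the wider rule, which takes only genes far higher in tumours. That rule fixes their rise, so the count and the median are not a result about the list. RBP4 and VTN were the called members outside it. After subtraction, 1 was higher and 7 lower. Subtracting the median share of all genes removes more than the abundant ones hold, since these stood near 0.5% to 0.7%, so the 7 lower calls are not falls in measured level and the counts after subtraction do not show whether these genes changed. CP, the copper oxidase ceruloplasmin, lay outside that range: it had 58.5, 30.7, 85.2 and 54.3 CPM in tumours, against 7.76, 7.52 and 8.88 CPM in cultures, at 27.98% of HepG2 tumours (2.60 ± 0.31, adjusted p = 1.2e-06). ORM1, an acute phase glycoprotein called at 2.26, stood at 0.783% of HepG2 tumours, just outside both rules. Of 25 acute phase and complement genes, 10 were set aside and 12 tested. Of these 12, 5 were called higher and 2 lower, against 10.9% and 5.73% of all genes. After subtraction, 3 were higher and 3 lower. Among 12 enzymes of hepatocyte metabolism tested, CPS1 and PCK1 rose and FBP1 fell, with 2 higher and 2 lower without tumour replicate 3. PCK1, which opens gluconeogenesis, had 2.42 to 6.91 CPM in tumours and 0.0951 to 0.467 CPM in cultures. FBP1, its partner further down the pathway, had 1.21 to 2.60 CPM in tumours and 3.14 to 4.56 CPM in cultures, and lost its call without either of tumour replicates 1 and 4 or either of culture replicates 1 and 3.

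**Figure D3:**
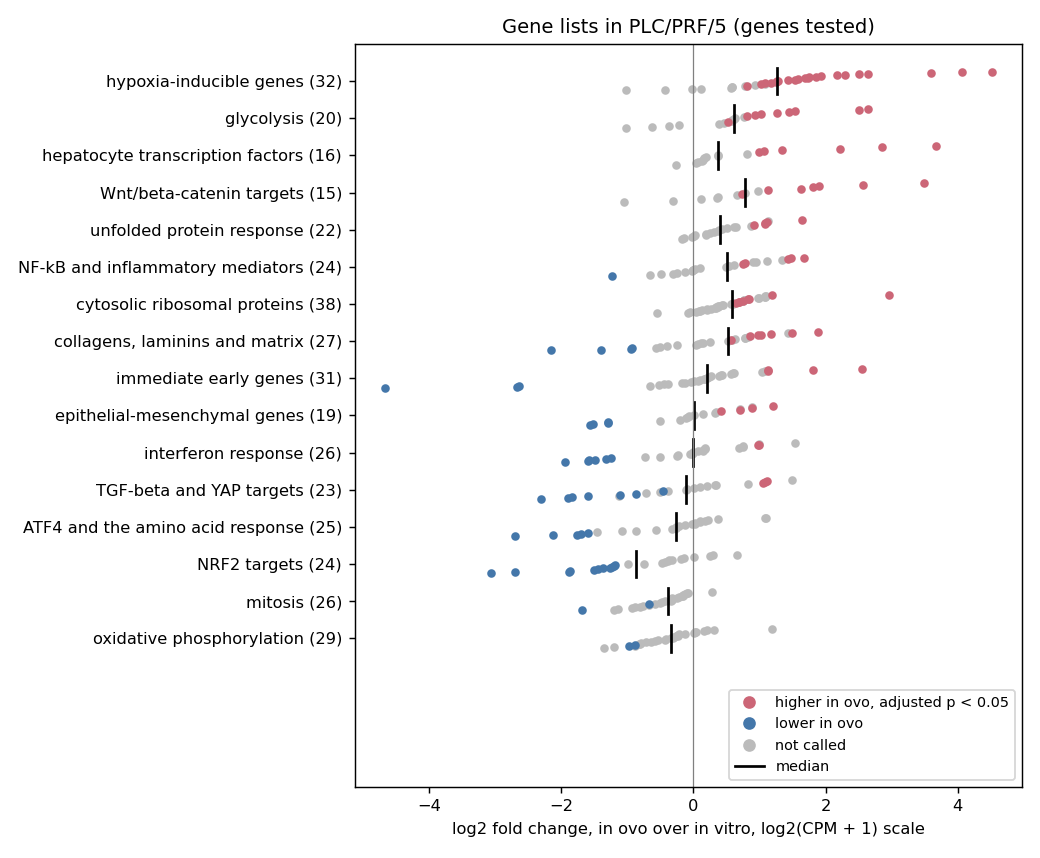
Log2 fold change of tumours over cultures, from log2(CPM + 1), for the tested members of 16 gene lists in PLC/PRF/5, with the number tested in brackets; each point is a gene, red if called higher, blue if called lower and grey if not called, and the bar is the median. Hypoxia-inducible genes have a median of 1.27 with 22 of 32 called higher, and NRF2 targets a median of -0.87 with 11 of 24 called lower.

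Immediate early genes held calls in both directions, at shares near those over all genes. Of 31 members, 4 were called higher and 3 lower, against 10.9% and 5.73% of all genes. FOSB, an AP-1 subunit, had 1.71, 2.34, 2.04 and 1.30 CPM in tumours, against 71.9, 71.8 and 68.0 CPM in cultures (-4.67 ± 0.23, adjusted p = 2.0e-13), the largest fall among genes averaging at least 10 CPM. FOS had 19.4 to 37.4 CPM in tumours and 154 to 165 CPM in cultures, and EGR1, a serum-induced zinc finger factor, had 42.3 to 70.8 CPM in tumours and 315 to 436 CPM in cultures. FOSL2, another AP-1 subunit, named after its values were seen, went the other way with 700.4 to 1514 CPM in tumours and 276 to 382 CPM in cultures, and so did NR4A2, an orphan nuclear receptor, with 22.3 to 29.1 CPM in tumours and 2.33 to 4.28 CPM in cultures. The groups were apart for all 5 genes named, as they were for 38.9% of all genes.

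Among TGF-beta and YAP targets, 7 of 23 were called lower, against 5.73% of all genes, and 3 higher, against 10.9%, with a median of -0.11. CTGF and CYR61, matricellular proteins that are the usual readouts of YAP, fell to 7.18 to 12.6 CPM and 98.4 to 148 CPM in tumours, against 47.5 to 51.9 CPM and 405 to 451 CPM in cultures (-2.31 ± 0.31 and -1.84 ± 0.38). PMEPA1, a feedback inhibitor of TGF-beta signalling, fell by 1.60. ID1 and ID3 fell by 0.87 and 1.11 and ID2 rose by 1.05, all 3 being dominant negative helix-loop-helix proteins. The called rises were ID2, AMOTL2 and LTBP1.

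Of 24 NRF2 targets, 11 were called lower, against 5.73% of all genes, and 0 higher, with a median of -0.87, and 9 to 11 were lower with 1 library left out. The 13 not called included TXN at 0.00, PGD at 0.26, SRXN1 at 0.30 and ABCC2 at 0.66. NRF2 is the factor that answers oxidants through enzymes of glutathione and NADPH supply. NQO1, its quinone reductase readout, had 55.9, 54.7, 60.7 and 41.9 CPM in tumours, against 156, 147 and 151 CPM in cultures (-1.50 ± 0.38, adjusted p = 0.0068). SLC7A11, the cystine importer, had 6.03, 14.2, 4.64 and 4.22 CPM in tumours, against 44.3, 54.4 and 45.7 CPM in cultures (-2.71 ± 0.38, adjusted p = 1.2e-05). Both were apart in every library, as were 38.9% of all genes. AKR1C2 fell to 0.334 to 1.11 CPM in tumours, against 12.4 to 16.7 CPM in cultures; it belongs to a near-identical aldo-keto reductase family, so its share of reads is uncertain. The drug exporter ABCC3 fell by 1.37. HMOX1, the haem oxygenase, had 48.9 to 191 CPM in tumours and 155 to 201 CPM in cultures, with overlap and no call.

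ATF4 targets, which supply amino acids under stress, shared SLC7A11 with that list. Of 25 tested, 5 were called lower, against 5.73% of all genes, and 0 higher, against 10.9%, at a median of -0.26. Without culture replicate 2 the lower calls were 3. FGF21, a fasting hormone, fell to 0.101 to 0.835 CPM in tumours, against 4.19 to 5.34 CPM in cultures. PSAT1, a serine synthesis enzyme, had 105, 298, 90.1 and 185 CPM in tumours, against 509, 564 and 473 CPM in cultures, a call lost without culture replicate 2. CHAC1, which degrades glutathione, had 15.5 to 72.5 CPM in tumours and 90.9 to 102 CPM in cultures. TRIB3 had 158 to 255 CPM in tumours and 232 to 251 CPM in cultures, with overlap and no call. Tumour replicate 2 was highest for SLC7A11, FGF21, PSAT1, CHAC1 and TRIB3.

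Interferon-stimulated genes held calls in both directions. Of 26 tested, 6 were called lower, among them all 3 IFIT genes tested on the list, against 5.73% of all genes, and 2 higher, against 10.9%, IFI27 and OAS3, with no rise called without tumour replicate 3 or without culture replicate 2. IFIT1, an RNA sensor of the antiviral response, had 1.01, 3.59, 1.81 and 1.08 CPM in tumours, against 7.86, 10.5 and 10.3 CPM in cultures (-1.95 ± 0.28, adjusted p = 1.4e-05). OASL, an inhibitor of viral replication, had 0.974 to 3.51 CPM in tumours and 6.66 to 11.03 CPM in cultures. In class I antigen presentation, 1 of 15 was called higher and 2 lower, against 10.9% and 5.73% of all genes, at a median of 0.23. B2M, the light chain of the complex, fell to 0.453 to 1.19 CPM in tumours, which is near the floor, against 2.23 to 3.33 CPM in cultures. Whether its amplicon reads the gene well was not tested. NLRC5, its transcriptional activator, fell by 0.80. PSMB9, an immunoproteasome subunit, rose by 0.74, a call lost without culture replicate 2, with total counts alone, with a pseudocount of 0.25 CPM and in edgeR's test.

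Epithelial, matrix and adhesion genes moved in both directions. CDH2 (N-cadherin) had 102 to 130 CPM in tumours and 295 to 388 CPM in cultures (-1.57 ± 0.29), the calcium-binding protein S100A4 fell by 1.51 and CLDN4, a tight junction claudin, by 1.30. OCLN (occludin) rose by 1.21, with 63.2 to 81.1 CPM in tumours and 29.1 to 31.0 CPM in cultures. CDH1 and VIM, the usual pair of epithelial and mesenchymal markers, both overlapped between the groups. CDH1 had 0 to 0.866 CPM in tumours and 0.467 to 0.666 CPM in cultures, which is near the floor. VIM had 2.60 to 7.02 CPM in tumours and 2.57 to 3.40 CPM in cultures. Whether these amplicons read their genes well was not tested. Of 19 genes on that list, 4 were called higher and 4 lower, against 10.9% and 5.73% of all genes. Without tumour replicate 3 there were 2 higher and 4 lower. KRT7, a biliary keratin, had 123 to 203 CPM in tumours and 364 to 449 CPM in cultures (-1.34 ± 0.16), while KRT19 had 224 to 554 CPM in tumours and 283 to 445 CPM in cultures, with overlap and no call.

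Among 27 matrix genes tested, 7 were called higher and 4 lower, against 10.9% and 5.73% of all genes. With 1 library left out, 3 to 6 were higher and 4 to 6 lower. The balance turned without tumour replicate 3, with 4 higher and 6 lower, and after subtraction of the HepG2 share there were 5 of each. LOXL2, a collagen-crosslinking oxidase under HIF control, had 494, 158, 475 and 375 CPM in tumours, against 108, 77.7 and 93.8 CPM in cultures (1.88 ± 0.38, adjusted p = 8.8e-04). COL15A1, a basement membrane collagen outside the list, had 327, 237, 311 and 486 CPM in tumours, against 43.4, 26.2 and 45.2 CPM in cultures. COL12A1, a fibril-associated collagen, fell to 4.19 to 12.6 CPM in tumours, against 37.5 to 42.5 CPM in cultures. All 3 were apart in every library, as were 38.9% of all genes. Among proteases and inhibitors, ADAMTS1 rose by 1.75 and TIMP3 by 0.91, and PLAT, the tissue plasminogen activator, fell by 1.14. Of 12 integrins, 0 were called higher and 2 lower, against 10.9% and 5.73% of all genes: ITGA6 by 0.61 and ITGB5 by 0.57. Without tumour replicate 2 there were 2 higher and 0 lower, and without culture replicate 1 or culture replicate 3 there were 0 of each.

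Amplicons of the alkaline phosphatase family moved in both directions. ALPP, the placental form, had 323, 173, 162 and 252 CPM in tumours, against 1895, 2302 and 1880 CPM in cultures (-3.20 ± 0.19, adjusted p = 5.0e-12). ALPPL2, the germ cell form, had 75.0, 44.9, 242 and 61.4 CPM in tumours, against 537, 516 and 530 CPM in cultures. ALPI, the intestinal form, picked after its values were seen, had 25950, 9445, 17061 and 28514 CPM in tumours, against 8697, 4994 and 8649 CPM in cultures (1.36 ± 0.41, adjusted p = 0.023), and lost its call without tumour replicate 1, tumour replicate 4 or culture replicate 2. The 3 genes are related neighbours on chromosome 2, and each amplicon matched 1 gene exactly. Whether reads of 1 were counted under another was not tested, so how reads were divided among them is uncertain. ALPP and ALPPL2 were below every culture in each tumour, while ALPI was above. Other falls among the largest were EPB41L3, a membrane skeleton protein, with 3.12 to 8.83 CPM in tumours and 80.0 to 94.2 CPM in cultures (-3.80 ± 0.25), and SLC12A3, the thiazide-sensitive salt transporter, with 20.3 to 35.2 CPM in tumours and 218 to 257 CPM in cultures (-2.99 ± 0.16). AKR1B1 (aldose reductase), MAPRE3, STRA6, SERPINB5, PPP2R2B and SNCG fell by 2.79, 2.68, 2.35, 2.35, 2.34 and 2.32.

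Protein folding and ribosomal genes held some rises and no falls. Of 22 genes of the unfolded protein response, 5 were called higher, against 10.9% of all genes, and 0 lower at a median of 0.41, but 1 to 7 with 1 library left out (1 without culture replicate 2 and 3 without tumour replicate 3). ERN1, the membrane sensor IRE1, had 64.9 to 90.9 CPM in tumours and 22.3 to 27.3 CPM in cultures (1.64 ± 0.24), and HSPA5, the main chaperone of the endoplasmic reticulum, had 975 to 1656 CPM in tumours and 639 to 807 CPM in cultures (0.91 ± 0.24). Of 38 cytosolic ribosomal protein genes, 8 were called higher, against 10.9% of all genes, and 0 lower, against 5.73%, at a median of 0.59. The higher calls were 3 to 6 with 1 library left out (4 without tumour replicate 3), 4 with DESeq2's size factors, 15 with the replicate number as a block and 19 with the 7 PLC/PRF/5 libraries fitted alone. RPL3 had 155 to 225 CPM in tumours and 85.1 to 87.2 CPM in cultures. RPL13 had 46.4, 17.96, 112 and 37.4 CPM in tumours, against 4.46, 4.66 and 5.14 CPM in cultures, with the highest value in tumour replicate 3.

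Proliferation, respiration and lipid genes held few calls in the fit to all 28 libraries and more lower calls in the fit to the 7 PLC/PRF/5 libraries alone. Over all genes, 10.9% were called higher and 5.73% lower in the fit to 28 libraries. The fit to 7 called 1898 higher and 1754 lower of 10855. Of 26 mitotic genes, CCNB2 and PRC1 were called lower and 0 higher, at a median of -0.39, with 8 lower by total counts alone and 12 with the 7 libraries alone. MKI67, the proliferation antigen, had 53.5 to 157 CPM in tumours and 133 to 181 CPM in cultures, and TOP2A had 415 to 480 CPM in tumours and 455 to 524 CPM in cultures, both with overlap. In DNA replication the licensing factor CDT1 rose by 1.60 ± 0.39 and thymidylate synthase TYMS fell by 0.65 ± 0.17 among 28 genes, where 9 were lower with the 7 libraries alone. Of 29 oxidative phosphorylation genes, NDUFA1 and SDHB were called lower and 0 higher, at a median of -0.33, while 6 were lower by total counts alone and 15 with the 7 libraries alone. PPARGC1A, the coactivator of mitochondrial biogenesis, rose to 24.6 to 36.4 CPM in tumours, against 6.99 to 8.56 CPM in cultures (1.93 ± 0.18, adjusted p = 2.3e-08). In fatty acid oxidation 3 of 21 were called higher and 4 lower, but 8 lower in DESeq2 and with the replicate block, and 12 of 20 with the 7 libraries alone. Among the falls was ACAA2, the last thiolase of the spiral, at 117 to 152 CPM in tumours and 269 to 288 CPM in cultures. In cholesterol synthesis 2 of 24 were called higher (HMGCS1 by 1.08 and TM7SF2 by 0.69) and 0 lower, and in fatty acid synthesis 0 of 18 higher and only ME1 lower, against 5 lower with the 7 libraries alone. Without tumour replicate 3, mitosis and oxidative phosphorylation each held 1 lower call and cholesterol synthesis 1 higher call. Of 20 p53 targets, DDB2 and TIGAR were called lower, by 1.60 and 1.29, and 0 higher, while CDKN1A had 412 to 513 CPM in tumours, inside the 362 to 686 CPM of the cultures.

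Markers of other cell types were mostly too low to test. Over all genes tested and kept, 10.9% were called higher and 5.73% lower. Of 15 endothelial markers, 10 were not tested and 3 of 5 were called higher, 2 without tumour replicate 3: CDH5 had 0.804, 1.00, 4.08 and 1.19 CPM in tumours, against 0.0970, 0.0951 and 0 CPM in cultures, PECAM1 had 1.00 to 1.93 CPM in tumours and 0 to 0.571 CPM in cultures, and EGFL7 had 25.1 to 110 CPM in tumours and 16.6 to 33.8 CPM in cultures, with overlap. PECAM1 was not called after the HepG2 share was subtracted. Of 16 fibroblast and smooth muscle markers, 12 were tested, with 1 higher (COL1A1, 11.7 to 21.7 CPM in tumours and 6.47 to 7.13 CPM in cultures) and 4 lower, FAP among them at 0.251 to 0.566 CPM in tumours and 5.43 to 7.04 CPM in cultures. The COL1A1 call was lost with total counts alone, with the GC and length trend removed and with a pseudocount of 0.25 CPM. Leaving out tumour replicate 1 or any 1 culture also ended it. Of 19 leukocyte markers, 7 were tested and CSF1R alone was called, at 9.63 to 12.2 CPM in tumours and 16.1 to 20.9 CPM in cultures. Erythroid markers gave no call among 2 tested. Of stratified epithelium markers KRT13 was called higher among 2 tested. That call was lost in edgeR, in DESeq2, with the GC and length trend removed and with a pseudocount of 0.25 CPM. It was also lost without tumour replicate 1 or culture replicate 2. Whether chicken RNA is read by these amplicons was not tested.

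The response of PLC/PRF/5 was then set against the mean response of HepG2, Hep3B and HuH7, each with 4 tumours and 3 cultures. The difference was called positive for 1121 genes (8.73%) and negative for 995 (7.75%), against 1629 and 807 with total counts alone and 723 and 614 in edgeR's count test. Among hypoxia genes, 20 of 32 had a more positive response in PLC/PRF/5 and 0 a more negative one. Their median log2 fold change was 1.27 in PLC/PRF/5, -0.38 in HepG2, -0.24 in Hep3B and 0.18 in HuH7, where the medians over all genes lay between -0.05 and 0.06. Glycolysis had 11 of 20, cholesterol synthesis 12 of 24 and ribosomal proteins 13 of 38 more positive, each with 0 more negative. Negative medians in the other lines are part of each of these differences. The glycolysis median was 0.62 in PLC/PRF/5, against -0.81 in HepG2, -0.31 in Hep3B and -0.24 in HuH7. The ribosomal median was 0.59 in PLC/PRF/5, against -0.15 in HepG2, -0.43 in Hep3B and -0.56 in HuH7. The cholesterol synthesis median was 0.31 in PLC/PRF/5, against -0.29 in HepG2, -0.07 in Hep3B and -2.09 in HuH7.

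CCL22 had the largest named difference, 7.72 ± 0.30 (adjusted p = 5.1e-15), since its mean stayed under 1.5 CPM in the tumours and cultures of every other line. IGFBP3 rose in PLC/PRF/5 tumours and had log2 fold changes of -1.86 in HepG2, -0.68 in Hep3B and -2.13 in HuH7, a difference of 5.35 (adjusted p = 4.7e-10). CA9 had 4.07 in PLC/PRF/5, against -1.93, 1.10 and 0.69 in those lines. EGLN3 had 1.74 in PLC/PRF/5, against -1.02, -1.54 and -1.24, a difference of 3.01. EDN2, MUC12, DMBT1 and COL15A1 were under 1 CPM in every group of the other lines, so the difference repeats the PLC/PRF/5 response. The same holds for the negative differences of EPB41L3, ALPP, SLC12A3, SERPINB5, SPINK6 and LMO1.

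TNFSF15 and MAP2K6 differed through a response in another line as well. TNFSF15, a cytokine of endothelial cells, fell to 5.26 to 11.7 CPM in PLC/PRF/5 tumours, against 25.5 to 33.1 CPM in cultures, and had a log2 fold change of 2.66 in HuH7. MAP2K6, a kinase upstream of p38, fell to 84.9 to 104 CPM in PLC/PRF/5 tumours, against 152 to 162 CPM in cultures, and had 1.62 in HepG2 and 1.17 in Hep3B. For FOSB, FOS, CTGF and SLC7A11 the line difference was not called: FOSB had -4.67 in PLC/PRF/5, -5.64 in HepG2, -2.21 in Hep3B and -4.23 in HuH7, and SLC7A11 had -2.71, -3.41, -2.49 and -2.75. NDRG1, at 3.59 in PLC/PRF/5 and 1.04, 3.07 and 2.25 in the others, differed by 1.46 (adjusted p = 0.055).

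**Figure D4:**
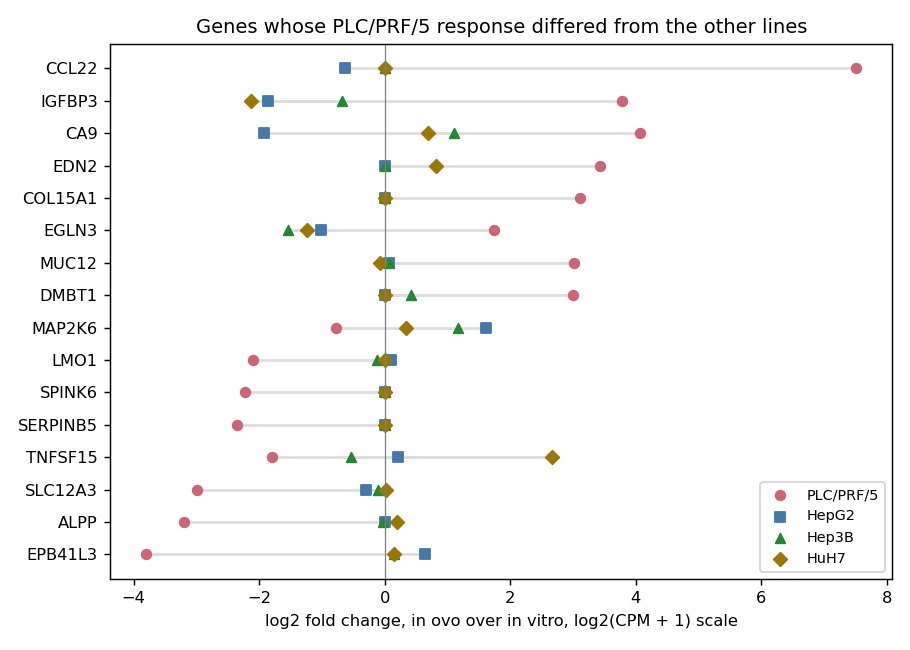
Log2 fold change of tumours over cultures, from log2(CPM + 1), in PLC/PRF/5 (red circles), HepG2, Hep3B and HuH7 for the 16 genes with the smallest p for the difference between PLC/PRF/5 and the mean of the other lines, 8 in each direction. CCL22 stands at 7.52 in PLC/PRF/5 and between -0.63 and 0.01 in the others, and EPB41L3 at -3.80, against 0.14 to 0.65.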

How the data were processed

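RNA of PLC/PRF/5 tumours and cultures was extracted with RNeasy columns and 500 ng per library went into DriverMap targeted amplicon libraries, per the labels' protocols. The submitters' processing notes name build hg38, with aligner and counter not given in the sources used here. Each deposited value is a signal of 1 amplicon, scaled by the authors to a library total of 500000, and CPM were these values times 2. Whole reads were recovered from the equal spacing of low values (100% of PLC/PRF/5 values within 0.01 of a whole read); 1 damaged KRT18 cell was filled with 4021 CPM. After TMM scaling, log2(CPM + 1) of genes passing filterByExpr (minimum 10 reads) was fitted with limma 3.58.1 with a variance trend in 1 fit to 8 groups of 28 libraries (20 residual degrees of freedom), with R 4.3.3. Sharing all groups steadies the spread but lets other lines set it. Benjamini-Hochberg adjustment ran over 13100 genes, with calls under 0.05. A count test had been planned; the scaled values made limma the main test, and edgeR 4.0.16 (quasi-likelihood) and DESeq2 1.42.0 on recovered reads were alternatives. The test was tried on simulated counts.

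Pseudocounts, filters, scaling, GC and length, the replicate number and each library were varied. Members and the 34 lists were chosen with earlier results of these data known. Named were 52 key genes, the 15 highest and 15 lowest called changes at a mean of at least 10 CPM without overlap, up to 4 called members per list by smallest adjusted p, the 8 smallest p each way for the line difference, and set aside genes by level and by the bounds; CXCR4, ALPI, NOG, WNT10B, FOSL2 and other genes said to be picked later, and list members given by fold change alone, are outside this rule. Amplicons were matched to GENCODE 29 transcripts on GRCh38. Standard errors are limma's and measure the spread between libraries; floors cover counting error only.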

Additional observations from a re-analysis of the deposited data

Results flagged for a closer look

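Of 178 named genes, 9 had a tumour library far from the other 3, where chance flags about 1 group in 20. In tumour replicate 2, HNF4A was lowest at 46.2 CPM (others 153.9 to 175.1 CPM), AKR1C2 lowest at 0.334 CPM (0.974 to 1.11 CPM) and ASNS highest at 9.86 CPM (0.566 to 1.01 CPM). In tumour replicate 3, ALPPL2 was highest at 241.9 CPM (44.9 to 75.0 CPM), C17orf51 at 104.9 CPM (52.9 to 54.5 CPM) and CDH5 at 4.08 CPM (0.804 to 1.19 CPM). In tumour replicate 4, AFP was highest at 238.5 CPM (119.9 to 128.4 CPM), AHSG at 55.5 CPM (25.5 to 30.6 CPM) and MAP2K6 at 103.7 CPM (84.9 to 87.9 CPM); that library also held the highest median share of the HepG2 level, 1.53%.

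The response differed from the mean of the other lines for 1121 genes upward and 995 downward. The named differences on the log2 scale were 7.72 for CCL22, 5.35 for IGFBP3, 4.11 for CA9, 3.15 for EDN2, 3.11 for COL15A1, 3.01 for EGLN3, 2.99 for MUC12 and 2.86 for DMBT1. The negative ones were -4.12 for EPB41L3, -3.26 for ALPP, -2.86 for SLC12A3, -2.57 for TNFSF15, -2.35 for SERPINB5, -2.23 for SPINK6, -2.10 for LMO1 and -1.81 for MAP2K6.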

How the results depend on the processing

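Counts of genes called lower in tumours were 736 as reported, 1202 with total counts alone, 1114 in DESeq2 and 1754 with the 7 PLC/PRF/5 libraries fitted alone. With 1 library left out, 820 to 1474 genes were higher and 441 to 808 lower, and the line difference gave 790 to 1101 positive and 738 to 953 negative; edgeR gave 723 and 614 there. A share of 1% to 2% would set aside 142 genes and a HepG2 tumour level of at least 100 CPM 103 genes. Of 2140 calls, 1239 were also called in the same direction without culture replicate 2 and 1775 in edgeR's test; signs turned for 23 after subtraction of the HepG2 share and for 3 after removal of the GC and length trend, and for 0 under the other alternatives run. Among the 178 named genes 15 turned after that subtraction, 5 of them set aside, at log2 changes of -0.43 for A2M, -0.85 for AFP, -0.87 for AGT, -0.53 for APOA1, -1.64 for APOA2, -1.05 for APOB, -0.10 for APOH, -0.66 for DLK1, -0.92 for FGB, -2.92 for IGF2, -0.83 for ORM1, -2.23 for SERPINA1, -0.0083 for SERPINA3, -0.50 for SERPIND1 and -1.91 for TF; the median share exceeds that of the most abundant genes. Correlations of deviations between same-numbered tumours and cultures were -0.06, 0.46 and 0.22, and other pairs ran between -0.42 and 0.35. Deviations within a group sum to 0, so these values cannot decide whether replicate numbers pair tumours with cultures. With the replicate number as a block, 1739 genes were higher and 1101 lower, and the line difference gave 1296 and 1120. The cause of the other changes was not tested. Depth limits genes under about 0.5 CPM.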
